A study of Mus musculus with 14 samples.

Results

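The 10 genes described here, Tap1, Tap2, Tapbp, Psmb8, Psmb9, Psmb10, Psme1, Psme2, Nlrc5 and Erap1, encode the peptide loading and immunoproteasome arm of class I antigen presentation. They were taken by name from the 51789 genes of a mouse tumour count table, and all 10 passed the filter on low counts that left 17294 genes for testing. Class I molecules of the major histocompatibility complex show peptides from the inside of a cell to CD8 T cells. The proteasome cuts proteins into those peptides, and in cells exposed to interferon the catalytic subunits Psmb8, Psmb9 and Psmb10 take the places of the constitutive subunits Psmb5, Psmb6 and Psmb7, while Psme1 and Psme2 form the PA28 activator that caps the barrel. Tap1 and Tap2 pump peptides into the endoplasmic reticulum, tapasin (Tapbp) bridges the transporter to the class I molecule, Erap1 trims the peptides, and Nlrc5 is a transactivator of the class I genes.

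Bulk tumour RNA was measured in 14 libraries made with a kit that reads the 3' end of polyadenylated RNA, so a count stands for a 3' tag and not for transcript length. Tumours came from hosts labelled NGS mouse or C57BI/6 mouse, given vehicle or ACSS2i, a compound that inhibits ACSS2, the enzyme that turns acetate into acetyl-CoA, in a study of triple negative breast cancer. The groups were NGS vehicle (n = 3), NGS ACSS2i (n = 3), C57BI6 vehicle (n = 4) and C57BI6 ACSS2i (n = 4). What the label NGS stands for, the tumour line, the dose, the length of treatment, and the age and immune status of the hosts are not given in the sources used here, and the series' mention of Bmal1 status is assigned to no library. The labels do not say whether replicates were separate animals, so p-values measure only the spread between these libraries.

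Library totals ran from 2.85 to 4.7 M counts in NGS and from 17.6 to 20.3 M counts in C57BI6, so host and depth cannot be told apart. In a principal component analysis the first component (60.5% of the variance) separated the hosts, and on the second (11.1%) NGS ACSS2i replicate 2 stood at -115 while the other 13 libraries lay between -37.7 and 55.6. Values without that library are given below beside several genes.

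The genes lie on 4 chromosomes. In GENCODE M21 coordinates of mm10, 5 of them sit in the major histocompatibility complex of chromosome 17: Psmb9 (34181987-34187764, minus strand), Tap1 (34187553-34197225, plus), Psmb8 (34197721-34201454, plus) and Tap2 (34203527-34216321, plus) follow each other, and Tapbp (33915899-33929292, plus) lies apart. Psmb10 (105935735-105938444, minus) and Nlrc5 (94434356-94527272, plus) are on chromosome 8, the neighbours Psme1 (55578123-55581529, plus) and Psme2 (55587441-55591113, minus) on chromosome 14, and Erap1 (74639568-74693201, plus) on chromosome 13. Tap1 and Psmb9 start head to head and their annotated ends share 212 bases. RefSeq promoter windows of GRCm38.p6, 250 bases before to 50 bases from the start annotated by RefSeq on, were at hand for 8 of the 10 genes (9 windows, because Psme2 has 2 starts), and those of Tap1 and Psmb9 share 275 bases. The RefSeq starts differ from the GENCODE ones. The windows of Psmb8, Psmb9, Psme1, Tapbp and Erap1 therefore lie wholly inside the GENCODE spans given above. Motif positions are counted from the RefSeq start. The windows of the genes that rose in NGS tumours (Tap1, Psmb8) and of the genes whose window holds an interferon-stimulated response element core (Psme1, Erap1) are printed 5' to 3', with motif matches in capitals.

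Tap1 promoter, chr17:34187306-34187605, plus strand: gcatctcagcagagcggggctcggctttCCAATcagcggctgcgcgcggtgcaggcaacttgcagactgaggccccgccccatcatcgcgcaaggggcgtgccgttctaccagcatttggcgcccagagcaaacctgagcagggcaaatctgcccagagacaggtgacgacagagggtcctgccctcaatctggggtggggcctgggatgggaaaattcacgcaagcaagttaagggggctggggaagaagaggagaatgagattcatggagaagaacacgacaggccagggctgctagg
Psmb8 promoter, chr17:34197945-34198244, plus strand: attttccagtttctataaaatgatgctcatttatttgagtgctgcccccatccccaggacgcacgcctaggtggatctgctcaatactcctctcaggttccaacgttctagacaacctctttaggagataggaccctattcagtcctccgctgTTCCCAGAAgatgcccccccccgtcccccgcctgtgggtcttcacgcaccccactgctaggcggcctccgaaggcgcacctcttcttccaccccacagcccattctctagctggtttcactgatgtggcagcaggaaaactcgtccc
Psme1 promoter, chr14:55578244-55578543, plus strand: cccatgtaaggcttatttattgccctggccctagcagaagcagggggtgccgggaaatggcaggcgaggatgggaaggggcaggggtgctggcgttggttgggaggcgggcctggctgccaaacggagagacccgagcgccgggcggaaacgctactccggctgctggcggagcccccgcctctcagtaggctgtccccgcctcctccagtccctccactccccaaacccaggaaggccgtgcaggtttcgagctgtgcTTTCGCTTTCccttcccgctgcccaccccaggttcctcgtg
Erap1 promoter, chr13:74639603-74639902, plus strand: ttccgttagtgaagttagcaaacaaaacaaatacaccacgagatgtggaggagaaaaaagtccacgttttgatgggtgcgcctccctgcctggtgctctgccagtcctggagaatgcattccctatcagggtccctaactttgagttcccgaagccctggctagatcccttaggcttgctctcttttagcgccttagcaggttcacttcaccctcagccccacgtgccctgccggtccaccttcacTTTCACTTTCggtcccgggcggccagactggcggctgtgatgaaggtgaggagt

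The interferon-stimulated response element core was searched as TTTCNNTTTC or GAAANNGAAA, the gamma-activated site core as TTCNNNGAA, which is its own reverse complement, and the CCAAT box as CCAAT or ATTGG. No match overlapped another within the same window. The first was found in the windows of Psme1 (positions 10 to 19 counted from the start) and Erap1 (-4 to 6), and in 3.44% of all 32851 windows of the table. The gamma-activated site core was found in the Psmb8 window (-97 to -89) and in 8.3% of all windows. The CCAAT box, present in 37.4% of all windows, was found in those of Tap1, Psmb9 and Tapbp. The matches of Tap1 and Psmb9 are the same bases, read on opposite strands of the stretch that their windows share. These matches are a description of letters in a window.

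In C57BI6 tumours all 10 genes had a positive change under ACSS2i against vehicle (all genes 47.3%), with a median log2 fold change of 0.54 against -0.01 over all genes tested, but 0 of the 10 passed the edgeR quasi-likelihood test at a Benjamini-Hochberg adjusted p of 0.05 over all genes, where 0.26% of all genes were called higher. At an unadjusted p of 0.05, 9 of 10 were higher (all genes 5.05%), and 8 of 10 had ranges of CPM (counts per 1e6 of the library total) that did not overlap between the groups (all genes 5.05% higher). In NGS tumours 9 of the 10 had a positive change (all genes 45.9%), with a median of 0.73, and Tap1 and Psmb8 rose (2 of 10; all genes 1.32% higher). There 7 of 10 had an unadjusted p under 0.05, all of them upward (all genes 10.1% higher), and 4 of 10, Tap1, Tapbp, Psmb8 and Psme1, had ranges that did not overlap (all genes 8.48% higher). CPM were scaled to the TMM-adjusted library totals, and changes are log2 fold changes with their standard error.

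**Figure D1:**
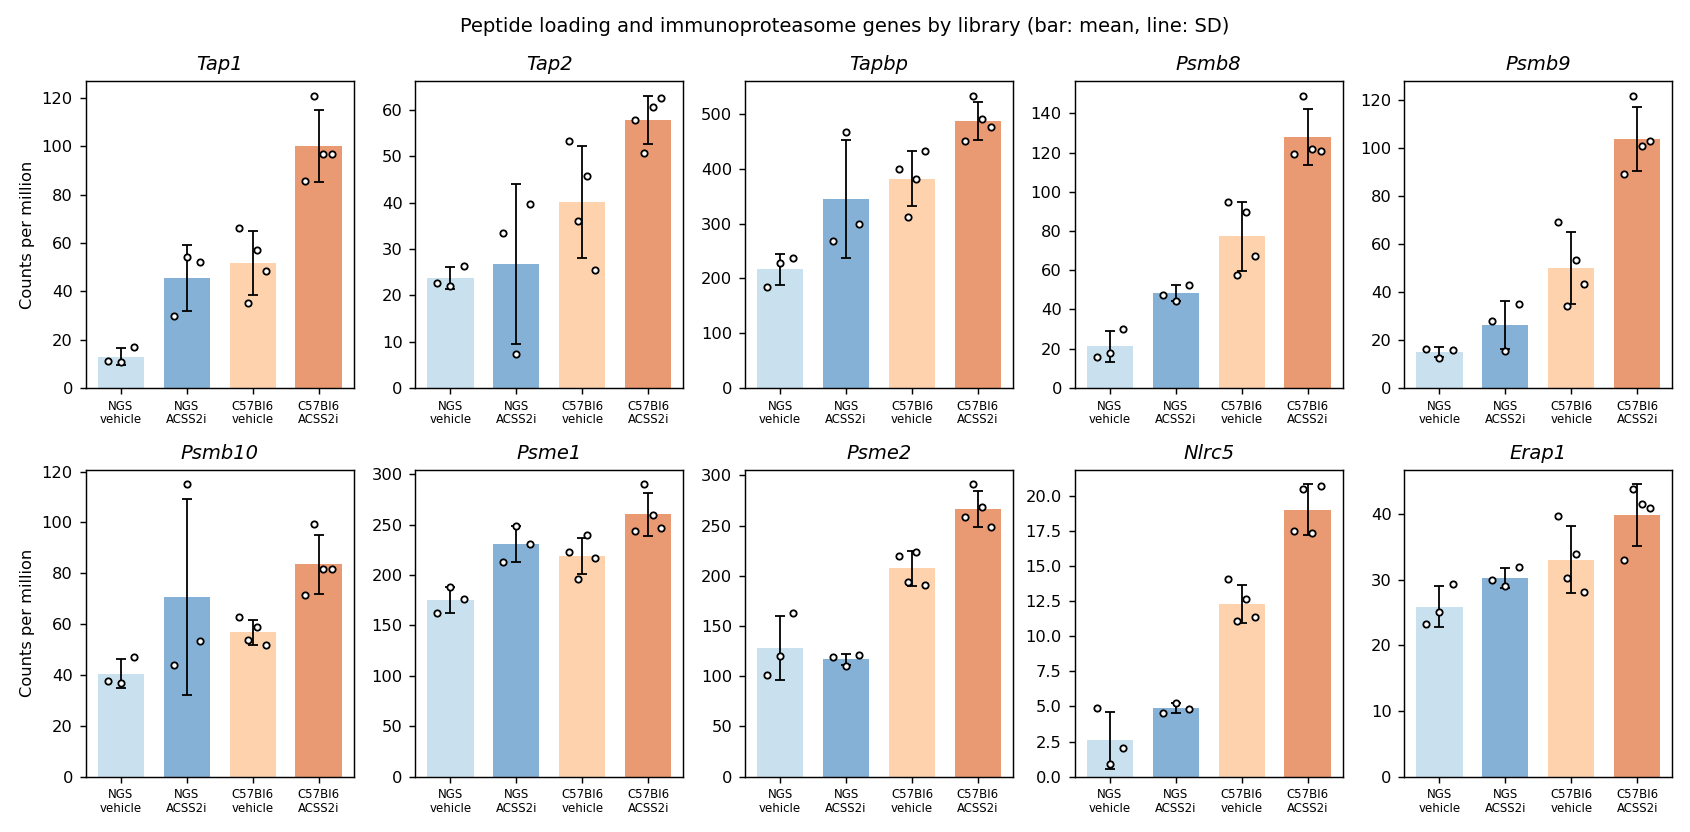
Level of each of the 10 genes in every library, in CPM on a linear axis from 0; bars are group means, lines 1 SD and points libraries. In 7 of the 10 panels the means climb in the order NGS vehicle, NGS ACSS2i, C57BI6 vehicle, C57BI6 ACSS2i, and the wide NGS ACSS2i bars of Tap2 and Psmb10 come from replicate 2.

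Among the transporter genes, Tap1 stood at 11.1, 10.8 and 16.9 CPM in NGS vehicle and at 29.7, 54.4 and 52 CPM in NGS ACSS2i. It stood at 66.1, 35.1, 56.9 and 48.4 CPM in C57BI6 vehicle and at 85.7, 121, 96.7 and 96.8 CPM in C57BI6 ACSS2i. Every treated library lay above every vehicle library of its host, and the NGS ACSS2i range overlapped that of C57BI6 vehicle. Tap1 rose in NGS by 1.81 ± 0.28 (SE) on the log2 scale, a fold of 3.51 (adjusted p = 0.00733), from a mean of 12.9 ± 3.42 (SD, n = 3) to 45.4 ± 13.6 CPM (n = 3). In C57BI6 the change was 0.95 ± 0.21 (adjusted p = 0.074), from 51.6 ± 13.2 to 100 ± 14.8 CPM (n = 4 each).

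Tap2, the partner subunit, passed the test in neither host. It stood at 22.7, 22 and 26.4 CPM in NGS vehicle and at 33.4, 7.25 and 39.6 CPM in NGS ACSS2i. NGS ACSS2i replicate 2 was the lowest of all 14 libraries for Tap2, while the other 2 treated libraries lay above the vehicle range. The change in NGS was 0.20 ± 0.40 (adjusted p = 0.82), and without replicate 2 it was 0.64 (adjusted p = 0.222). In C57BI6 Tap2 ranged from 25.4 to 53.3 CPM under vehicle and from 50.7 to 62.5 CPM under ACSS2i, overlapping ranges, with a change of 0.53 ± 0.31 (adjusted p = 0.774).

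Tapbp, which holds the empty class I molecule at the transporter, stood at 185, 228 and 237 CPM in NGS vehicle and at 269, 468 and 299 CPM in NGS ACSS2i, with replicate 2 again apart, here as the highest. The ranges did not overlap, and the change of 0.67 ± 0.18 did not pass (adjusted p = 0.0581; 0.41 and adjusted p = 0.177 without replicate 2). In C57BI6 Tapbp ranged from 313 to 432 CPM under vehicle and from 451 to 534 CPM under ACSS2i, a change of 0.35 ± 0.15 (adjusted p = 0.554). Erap1, the aminopeptidase of the endoplasmic reticulum, varied least between hosts and treatments together with Psme1: its group means ran from 25.9 ± 3.15 CPM (SD, n = 3) in NGS vehicle to 39.9 ± 4.7 CPM (n = 4) in C57BI6 ACSS2i. Its treatment change was 0.23 ± 0.16 in NGS (adjusted p = 0.418) and 0.27 ± 0.12 in C57BI6 (adjusted p = 0.618), with overlapping ranges in both.

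Psmb8, the inducible subunit that replaces Psmb5, had the clearest separation by group. It stood at 15.6, 17.9 and 29.9 CPM in NGS vehicle and at 47.6, 44.5 and 52.5 CPM in NGS ACSS2i. It stood at 94.7, 57.8, 89.6 and 67.2 CPM in C57BI6 vehicle and at 119, 149, 122 and 121 CPM in C57BI6 ACSS2i. Of the 10 genes it alone had 4 groups with no overlap between neighbours in the order of means. It rose in NGS by 1.2 ± 0.23, a fold of 2.29 (adjusted p = 0.0178), and its change in C57BI6 was 0.72 ± 0.18 (adjusted p = 0.133).

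Psmb9, which replaces Psmb6, stood at 69.4, 34.2, 53.4 and 43.3 CPM in C57BI6 vehicle and at 89.4, 122, 101 and 103 CPM in C57BI6 ACSS2i. The ranges did not overlap, and the change of 1.05 ± 0.22, a fold of 2.07, had the smallest adjusted p of the 10 genes in this host (0.056). In NGS it stood at 16.4, 12.6 and 15.7 CPM under vehicle and at 28.1, 15.5 and 35.2 CPM under ACSS2i. Replicate 2 fell within the vehicle range and the other 2 treated libraries lay above it. The change in NGS was 0.83 ± 0.29 (adjusted p = 0.118), and 1.11 without replicate 2 (adjusted p = 0.0732).

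Psmb10, which replaces Psmb7, stood at 37.6, 36.8 and 47.2 CPM in NGS vehicle and at 44.1, 115 and 53.4 CPM in NGS ACSS2i. The highest of all 14 values was NGS ACSS2i replicate 2, the library that was lowest for Tap2. The change of 0.80 ± 0.27 (adjusted p = 0.106) shrank to 0.29 (adjusted p = 0.411) without it. In C57BI6 Psmb10 ranged from 51.8 to 62.7 CPM under vehicle and from 71.4 to 99.5 CPM under ACSS2i with no overlap, a change of 0.56 ± 0.22 (adjusted p = 0.47). Leaving out that NGS library also moved the C57BI6 adjusted p-values, to 0.0462 for Psmb10, 0.0222 for Psmb9 and 0.0524 for Tap1. In that fit 0.591% of all genes were called higher in C57BI6, against 0.26% with all libraries. The libraries of both hosts were fitted in 1 model, with a shared estimate of the spread, filter and scaling. The part of each in this shift was not tested.

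The PA28 activator genes had changes of opposite sign in NGS, neither past the test. Psme1 stood at 162, 188 and 176 CPM in NGS vehicle and at 213, 249 and 231 CPM in NGS ACSS2i, with no overlap and a change of 0.40 ± 0.11 (adjusted p = 0.0597). Psme2 stood at 101, 120 and 163 CPM in NGS vehicle and at 119, 110 and 121 CPM in NGS ACSS2i, with all treated values inside the vehicle range. Its change of -0.13 ± 0.14 (adjusted p = 0.642) was the only negative one of the 10 genes in either host, and it became 0.11 when NGS vehicle replicate 3 was left out. In C57BI6 neither pair of ranges overlapped: Psme1 changed by 0.25 ± 0.09 (adjusted p = 0.419) and Psme2 by 0.36 ± 0.12, from 207 ± 17.4 to 266 ± 17.9 CPM (SD, n = 4 each; adjusted p = 0.34).

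Reads of Psme2 may be divided with a near-identical copy. The retrogene Psme2b on chromosome 11 shares 291 of the 495 distinct 50-base words (58.8%) in the last 300 bases of the Psme2 transcripts, and it is counted as a gene of its own. Psme2b stood at 5.06, 10.3 and 6.61 CPM in NGS vehicle and at 23, 13.8 and 27.2 CPM in NGS ACSS2i, a rise of 1.56 ± 0.37 (adjusted p = 0.0393). With the counts of both genes summed, the change in NGS was 0.03 (adjusted p = 0.94), so its sign depends on how the copies are counted. The other members shared at most 12.2% of such words with another gene, the value for Psme1 and Gm7776. Whether counting used the strand is not given in the sources used here. Counts of genes that overlap on opposite strands may therefore not be fully separate. Erap1 and Cast overlap at their 3' ends (834 shared bases). Tap1 and Psmb9, and Nlrc5 and the antisense transcript 9330175E14Rik (748 shared bases), overlap at their starts, away from the 3' ends read by the kit. Zbtb22 lies inside the span of Tapbp on the same strand (3422 shared bases), where strand does not separate counts. Zbtb22 changed by -0.15 ± 0.12 in C57BI6 (adjusted p = 0.884) and by -0.20 ± 0.15 in NGS (adjusted p = 0.455).

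Nlrc5 was the least counted of the 10 genes, with 24, 4 and 9 counts in NGS vehicle, 17, 16 and 21 in NGS ACSS2i, and 189 to 417 in the C57BI6 libraries. In CPM it stood at 4.86, 0.897 and 2.05 in NGS vehicle and at 4.55, 5.27 and 4.83 in NGS ACSS2i. The NGS vehicle libraries differed from each other more than the groups did, and the change of 0.87 ± 0.38 did not pass (adjusted p = 0.195). It passed without NGS vehicle replicate 1 (1.72, adjusted p = 0.0274) and was 0.49 without NGS vehicle replicate 2 (adjusted p = 0.396). In C57BI6 it ranged from 11.1 to 14.1 CPM under vehicle and from 17.4 to 20.7 CPM under ACSS2i, with no overlap and a change of 0.63 ± 0.22 (adjusted p = 0.387). The antisense transcript 9330175E14Rik changed by 0.79 ± 0.24 in C57BI6 (adjusted p = 0.254) and by 1.63 ± 0.46 in NGS (adjusted p = 0.121).

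The C57BI6 calls depended on the fit. With library totals as the only scaling (all genes 0.572%) and with no filter on low counts (all genes 0.352%), Psmb9 and Tap1 passed upward. With the C57BI6 libraries fitted alone, 6 of the 10 genes passed upward (Psmb9, Tap1, Psmb8, Nlrc5, Psmb10 and Psme2; all genes 1.5%), with adjusted p-values from 0.0192 to 0.0393. A DESeq2 Wald test called 4 (Psmb9, Psmb8, Tap1 and Nlrc5; all genes 1.61%) and limma voom with library quality weights called 5 (the same 4 and Psmb10; all genes 1.95%). In NGS library totals only gave 4 calls (Tap1, Psmb8, Tapbp and Psme1; all genes 1.91%), no filter gave 3 (Tap1, Psmb8 and Tapbp; all genes 0.883%) and the DESeq2 test gave 6 (Tap1, Psmb8, Psme1, Tapbp, Psmb10 and Psmb9; all genes 4.61%), whereas limma voom (all genes 0.0925%) and the NGS libraries fitted alone (all genes 0.0558%) called 0. For Tap1 in NGS the adjusted p was 0.0615 by limma voom and 0.08 with the NGS libraries alone, and leaving out single libraries gave 0.00111 to 0.0313. For Psmb8 in NGS those values were 0.0615, 0.147 and 0.0132 to 0.0633, the call being lost without NGS vehicle replicate 1, NGS vehicle replicate 2 or NGS ACSS2i replicate 3. Without NGS ACSS2i replicate 1, Tapbp (adjusted p = 0.0146), Psmb10 (adjusted p = 0.0199) and Psme1 (adjusted p = 0.0283) also passed in NGS. In that fit 4.29% of all genes were called higher in NGS, against 1.32% with all libraries. Tap1 then passed in C57BI6 (adjusted p = 0.034, all genes 0.477% higher). Without C57BI6 vehicle replicate 1, Psmb9 passed in C57BI6 (adjusted p = 0.0289, all genes 0.284% higher).

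The average of the treatment effects in both hosts, a contrast added after the results were seen, was past the test for 6 of the 10 genes, all higher (all genes 1.86%). These were Tap1 (1.38 ± 0.17, adjusted p = 0.000716), Psmb8 (0.96 ± 0.15, adjusted p = 0.00282), Psmb9 (0.94 ± 0.18, adjusted p = 0.0139), Psme1 (0.32 ± 0.07, adjusted p = 0.0263), Tapbp (0.51 ± 0.12, adjusted p = 0.0319) and Psmb10 (0.68 ± 0.17, adjusted p = 0.0472). Nlrc5 (0.75 ± 0.22, adjusted p = 0.08), Erap1 (0.25 ± 0.10, adjusted p = 0.187), Tap2 (0.37 ± 0.25, adjusted p = 0.443) and Psme2 (0.12 ± 0.09, adjusted p = 0.529) did not pass. With a single library left out, 4 to 6 of the genes passed (all genes 1.1% to 3.59% higher), and Tap1, Psmb8 and Psmb9 passed each time. Nlrc5 passed without NGS vehicle replicate 1 (1.17) and by DESeq2. Over all 23 other settings, the calls of Psmb10, Tapbp and Psme1 were lost under 13, 7 and 3. The test of a difference between the hosts' treatment effects called 0 of the 10 genes (all genes 0.0173% in either direction); 2 had an unadjusted p under 0.05 (all genes 13.8% in either direction). These were Tap1, with a smaller effect in C57BI6 than in NGS by -0.86 (95% interval -1.59 to -0.12, adjusted p = 0.305), and Psme2, with a larger one by 0.49 (0.09 to 0.89, adjusted p = 0.292). DESeq2 and limma voom also called 0 of the 10 for this difference.

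**Figure D2:**
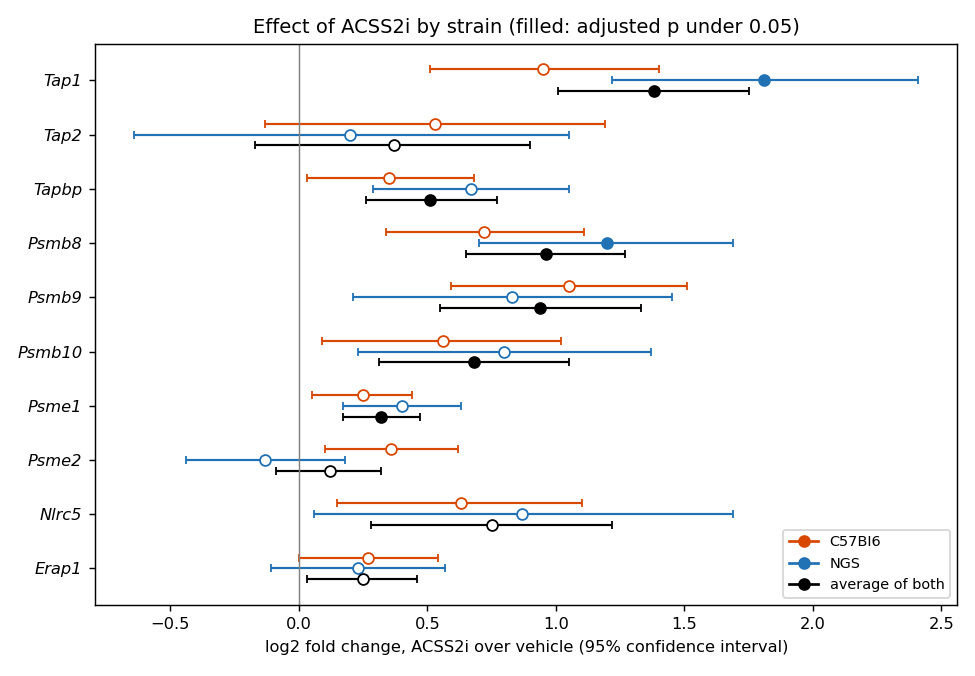
Log2 fold change of ACSS2i over vehicle for each gene in C57BI6, in NGS and as the average of both, with 95% confidence intervals from the edgeR fit; filled points have an adjusted p under 0.05. Tap1 and Psmb8 are filled in NGS, none in C57BI6, and 6 genes in the average; Psme2 in NGS has the only point left of 0.

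Under vehicle, the level of 7 of the 10 genes was higher in C57BI6 than in NGS tumours (all genes 18.8% higher), and 8 of 10 had ranges that did not overlap (all genes 23.5% higher). Nlrc5 differed by 2.21 ± 0.32 (fold 4.63, adjusted p = 9.09e-05), Tap1 by 2.00 ± 0.26 (fold 4, adjusted p = 3.65e-05), Psmb8 by 1.88 ± 0.22 (adjusted p = 1.19e-05) and Psmb9 by 1.75 ± 0.27 (adjusted p = 0.000163). Smaller differences were seen for Tapbp (0.82 ± 0.17), Psme2 (0.70 ± 0.14) and Psme1 (0.32 ± 0.10, adjusted p = 0.0239). The call for Psme1 was lost on counts thinned to 1 depth, with library totals as the only scaling, and when NGS vehicle replicate 1, C57BI6 vehicle replicate 1 or C57BI6 vehicle replicate 3 was left out. Tap2 (0.76 ± 0.36, adjusted p = 0.117), Psmb10 (0.49 ± 0.25, adjusted p = 0.145) and Erap1 (0.35 ± 0.14, adjusted p = 0.0717) did not pass. Without NGS ACSS2i replicate 2, Tap2 (adjusted p = 0.0104) and Psmb10 (adjusted p = 0.0119) passed in this comparison (all genes 21.4% higher). Erap1 passed without NGS vehicle replicate 3 (all genes 17.3%) or C57BI6 vehicle replicate 4 (17.2%). Among treated tumours 8 of 10 were higher in C57BI6 (all genes 23.1% higher), led by Psmb9 (1.96 ± 0.26), Nlrc5 (1.96 ± 0.30) and Psmb8 (1.4 ± 0.21), and Psmb10 (0.25 ± 0.24, adjusted p = 0.441) and Psme1 (0.17 ± 0.10, adjusted p = 0.188) did not pass. Without NGS ACSS2i replicate 2, Psmb10 was higher in C57BI6 by 0.78 (adjusted p = 0.00193), and limma voom also called it. The calls of Erap1 (0.39 ± 0.14, adjusted p = 0.0399), Tapbp (0.50 ± 0.17, adjusted p = 0.028) and Tap2 (1.09 ± 0.36, adjusted p = 0.0261) were lost under 16, 5 and 2 of the other settings. With library totals as the only scaling, the median of all genes between hosts under vehicle moved from 0.01 to -0.14.

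The ratio of an inducible to its constitutive subunit within a library needs no scaling between libraries. In C57BI6 the log2 ratio of counts (with 0.5 added to each) was higher under ACSS2i than under vehicle without overlap for all 5 pairs, by 1.11 for Psmb9 over Psmb6, 0.72 for Psmb8 over Psmb5, 0.52 for Psmb10 over Psmb7, 0.36 for Psme2 over Psme3 and 0.25 for Psme1 over Psme3. In an exact two-sided permutation test each had p = 0.0286, the smallest that 4 libraries against 4 allow, and an adjusted p of 0.0571 over the 10 ratio tests. With the NGS tests bounded at 0.1, that is the smallest adjusted p these 10 tests could give, so no ratio could pass at 0.05. In NGS, where 3 against 3 cannot go below 0.1, the ratio differed by 1.15 for Psmb8, 1.04 for Psmb10 and 0.41 for Psme1 (exact permutation p = 0.1 each, no overlap), by 0.44 for Psmb9 (exact permutation p = 0.5) and by -0.09 for Psme2 (exact permutation p = 0.9). The Psmb10 over Psmb7 ratio was -1.41, 0.42 and -1.32 in the NGS ACSS2i libraries and -1.74, -1.88 and -1.81 in NGS vehicle. Replicate 2 thus made up most of the mean difference, while the other 2 treated libraries were also above all 3 vehicle libraries.

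**Figure D3:**
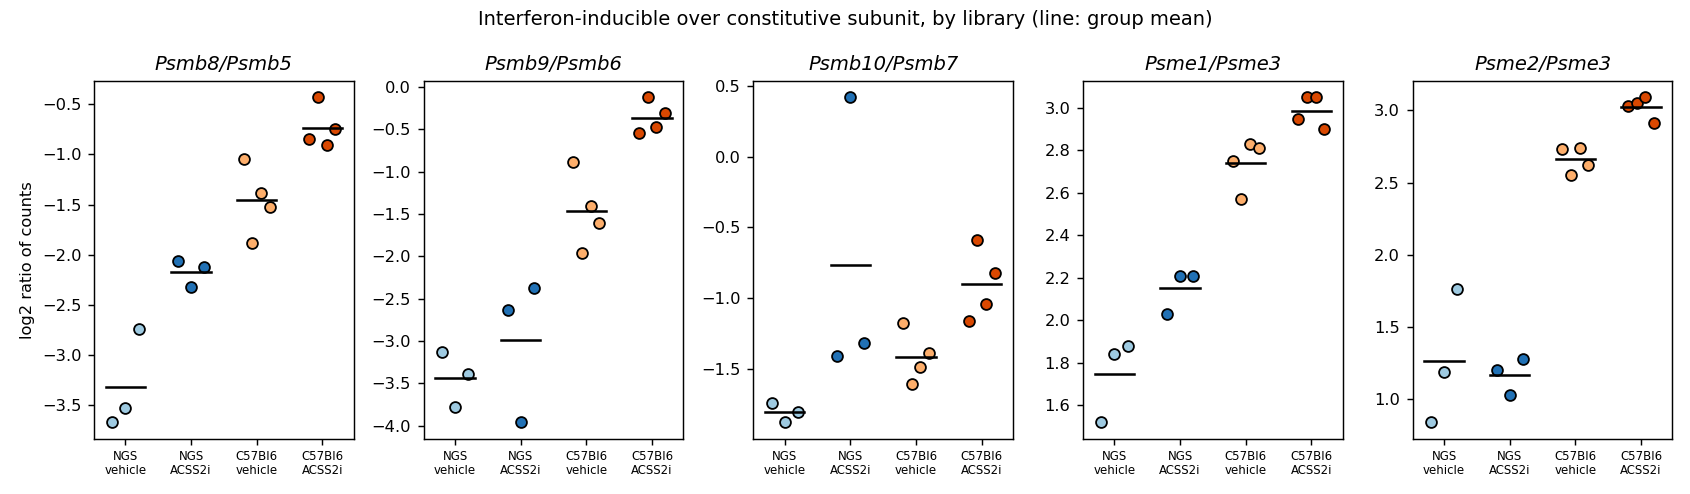
Log2 ratio of the counts of each inducible subunit to its constitutive counterpart in every library, with Psme3 as the partner of Psme1 and Psme2; points are libraries and lines group means. In C57BI6 the ACSS2i points of all 5 panels lie above the vehicle points, and 1 NGS ACSS2i library stands at 0.42 in the Psmb10 over Psmb7 panel.

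The counterparts Psmb5, Psmb6 and Psmb7 had 0 of 3 genes past the test in either host, with treatment changes of 0.02 ± 0.09, -0.02 ± 0.10 and 0.03 ± 0.13 in C57BI6 and 0.10 ± 0.10, 0.31 ± 0.12 and -0.34 ± 0.15 in NGS. Psme3, which forms a nuclear activator, changed by 0.00 ± 0.08 in C57BI6 and -0.01 ± 0.10 in NGS. Of 11 structural subunits of the core none passed in either host (median changes 0.07 in C57BI6 and -0.01 in NGS). Of 18 regulatory particle subunits 0 passed in C57BI6 and the ubiquitin receptor Adrm1 rose in NGS (0.47 ± 0.11, adjusted p = 0.0404). Of 7 other activators and assembly factors 0 passed in C57BI6 and the assembly chaperone Psmg1 fell in NGS (-0.97 ± 0.21, adjusted p = 0.027). Of 7 cytosolic peptidases 0 passed in either host. Over all genes, 1.32% were called higher and 1.38% lower in NGS, and 0.26% and 0.052% in C57BI6.

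The class I molecules that receive the peptides also rose in NGS. For the host comparisons below, 1.32% of all genes were called higher in NGS and 0.26% in C57BI6. Of 11 loading partners, 3 rose there: B2m, the light chain, from 1499 ± 50.3 to 3365 ± 417 CPM (1.17 ± 0.13, adjusted p = 0.00127), and the heavy chains H2-K1, from 77.8 ± 17.8 to 293 ± 36.1 CPM (1.91 ± 0.21, adjusted p = 0.00127), and H2-D1 by 0.82 ± 0.15 with an adjusted p of 0.0142. In C57BI6 0 of the 11 passed, with H2-K1 at 0.67 ± 0.17 (adjusted p = 0.144), H2-D1 at 0.45 ± 0.13 (adjusted p = 0.192) and B2m at 0.21 ± 0.11 (adjusted p = 0.742). Of 13 transcription factors known to act on class I genes, Rela rose in NGS (0.55 ± 0.11, adjusted p = 0.0224) and 0 passed in C57BI6. Irf1, a target of interferon gamma, changed by 0.50 ± 0.16 in C57BI6 (adjusted p = 0.299) and by 0.62 ± 0.19 in NGS (adjusted p = 0.0815). Of 7 genes of interferon gamma reception and signalling 0 passed in either host alone. In the average of the treatment effects in both hosts, 2 of those 7 and 4 of the 13 transcription factors were called higher (all genes 1.86%). These lists share genes. Of the 11 loading partners 3 were called higher in that average. Of 8 type I interferon response genes all 8 rose in NGS (median 1.70), and Mx1 (1.51 ± 0.24), Irf7 (1.46 ± 0.25) and Isg15 (0.87 ± 0.17) rose in C57BI6 (3 of 8, median 0.84); their part in the changes of the 10 genes was not tested.

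Sums of some cell type markers differed between the treatments beside the 10 genes. In bulk tumour, fewer cells of a type and less RNA per cell cannot be told apart. The summed CPM of 4 pan-leukocyte markers ran from 372 to 441 in C57BI6 vehicle and from 516 to 651 in C57BI6 ACSS2i, and from 370 to 468 in NGS vehicle and from 497 to 643 in NGS ACSS2i, without overlap in either host, although 0 of the 4 markers passed the test in either host alone. The sum of 9 T cell markers ran from 7.5 to 18.4 in C57BI6 vehicle and from 26.8 to 60.1 in C57BI6 ACSS2i, and that of 6 NK cell markers from 7.61 to 9.15 and from 14.6 to 35.7, again with 0 markers past the test in C57BI6. In the average effect of both hosts, 2 of the 4 pan-leukocyte, 2 of the 6 NK cell and 0 of the 9 T cell markers were called higher (all genes 1.86%). Within groups the gene levels and the marker sums did not always run together. C57BI6 ACSS2i replicate 2, highest in its group for 8 of the 10 genes, had the highest T cell sum (60.1) and pan-leukocyte sum (651). Replicate 1, lowest for 7, had the lowest pan-leukocyte (516) and NK cell (14.6) sums but the second highest T cell sum (37.8). Replicate 3 had the highest NK cell sum (35.7). In C57BI6 vehicle, replicate 2, lowest for 6 genes, had the lowest T cell (7.5), NK cell (7.61) and pan-leukocyte (372) sums. Vehicle replicate 1, highest for 7, had the highest T cell sum (18.4) but not the highest NK cell (8.49) or pan-leukocyte (426) sum. The part of these cells in the C57BI6 changes was not tested.

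In NGS tumours the T cell sum was 2.63 to 3.14 CPM under vehicle and 1.61 to 4.28 CPM under ACSS2i. The NK cell sum was 1.12 to 2.28 and 2.64 to 6.44 CPM, without overlap, and 3 of its 6 markers had a positive change. In this host 0 markers of either list passed the test. Cd3e and Cd3g, which are defining T cell genes, Ncr1 of NK cells and Cd79a of B cells were at 0 in all 6 NGS libraries, which at these depths allows up to 0.638 to 1.05 CPM in a library (3 counts). Cd3e, Cd3g and Ncr1 were among the genes tested, but a gene at 0 in both NGS groups could not pass there. For them the lack of a call says nothing about a change. The part of T and NK cells in the rise of Tap1 and Psmb8 in this host was not tested. Of 9 macrophage and monocyte markers, whose sums ran from 2220 to 3373 CPM in NGS vehicle, 3295 to 3547 in NGS ACSS2i, 2672 to 3887 in C57BI6 vehicle and 3264 to 4197 in C57BI6 ACSS2i, Ly6c2 rose in both hosts (3.20 ± 0.46 in NGS, adjusted p = 0.00552; 3.17 ± 0.35 in C57BI6, adjusted p = 0.00156). The neutrophil gene Csf3r (-3.14 ± 0.65, adjusted p = 0.0238) and the fibroblast gene Dcn (-1.21 ± 0.22, adjusted p = 0.0148) fell in NGS, each the 1 marker of its list past the test there (of 3 neutrophil and 5 fibroblast markers tested, of which 0 and 2 had a positive change). The summed fibroblast markers ran from 7471 to 8184 CPM in NGS vehicle and from 5837 to 6625 in NGS ACSS2i, and the dendritic cell markers from 15.6 to 16.6 and from 19 to 24.9, both without overlap. Of the 5 dendritic cell markers tested, 2 had a positive change in NGS (median -0.24), so most went against their sum. The part of these cells in the NGS changes was not tested. Over all genes, 1.32% were called higher and 1.38% lower in NGS, and 0.26% higher in C57BI6. No marker tested of the B cell, dendritic cell, epithelial, keratinocyte, endothelial, skeletal muscle or adipocyte lists passed in either treatment comparison. Skeletal muscle RNA varied widely inside groups, with a summed 154 to 4266 CPM in NGS vehicle, 6.92 to 385 in NGS ACSS2i, 0.785 to 663 in C57BI6 vehicle and 1.68 to 1929 in C57BI6 ACSS2i, and keratinocyte markers summed to 34.9 to 871 CPM in NGS vehicle and 8.29 to 211 in NGS ACSS2i. Without the 3 C57BI6 libraries over 100 CPM of muscle markers, the C57BI6 adjusted p was 0.0778 for Psmb9 and 0.13 for Tap1, and 0 of the 10 genes passed (all genes 0.124%).

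**Figure D4:**
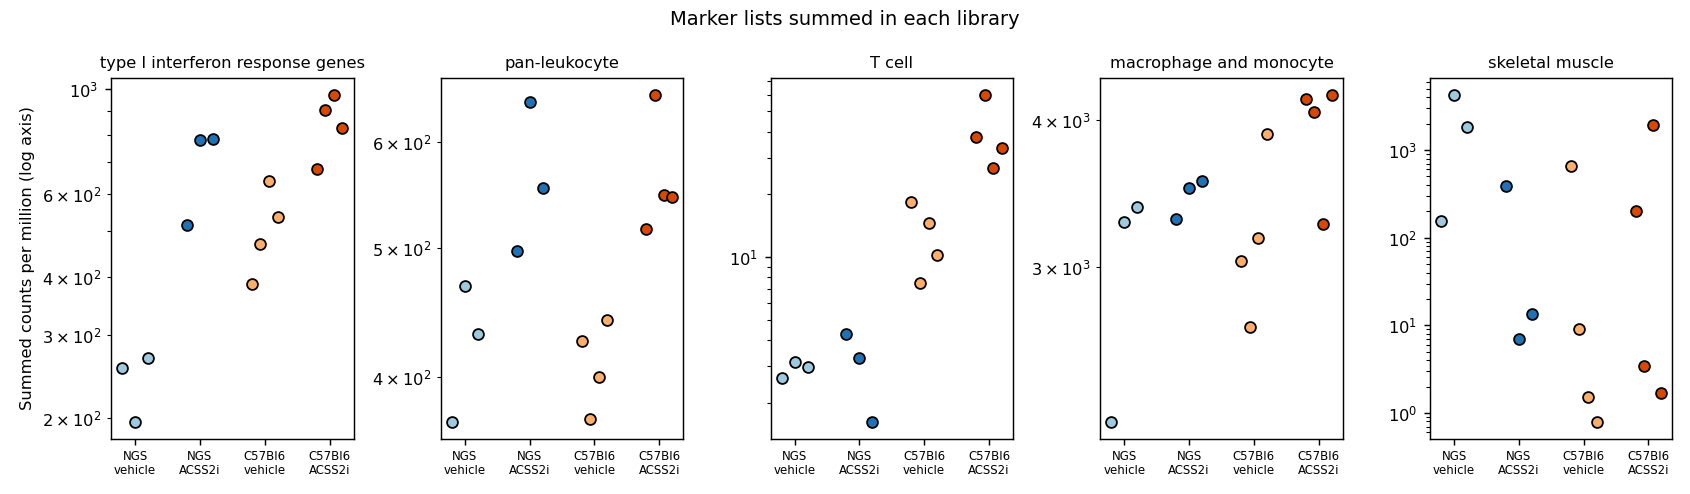
Summed CPM of marker lists in every library, on log axes; points are libraries. The pan-leukocyte sums of the treated libraries lie above those of the vehicle libraries in both hosts, T cell sums are at or below 4.28 in all NGS libraries, and muscle sums spread widely within each group.

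The libraries of 1 group did not deviate evenly. In NGS ACSS2i, replicate 2 was the highest of its group for 5 of the 10 genes and the lowest for the other 5. It was lowest for Tap2 and Psmb9 and highest for Psmb10 and Tapbp, so it was not shifted as a whole. In C57BI6 the deviations went the same way for most genes: vehicle replicate 2 was lowest for 6 and highest for 0, and ACSS2i replicate 1 lowest for 7 and highest for 0.

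**Figure D5:**
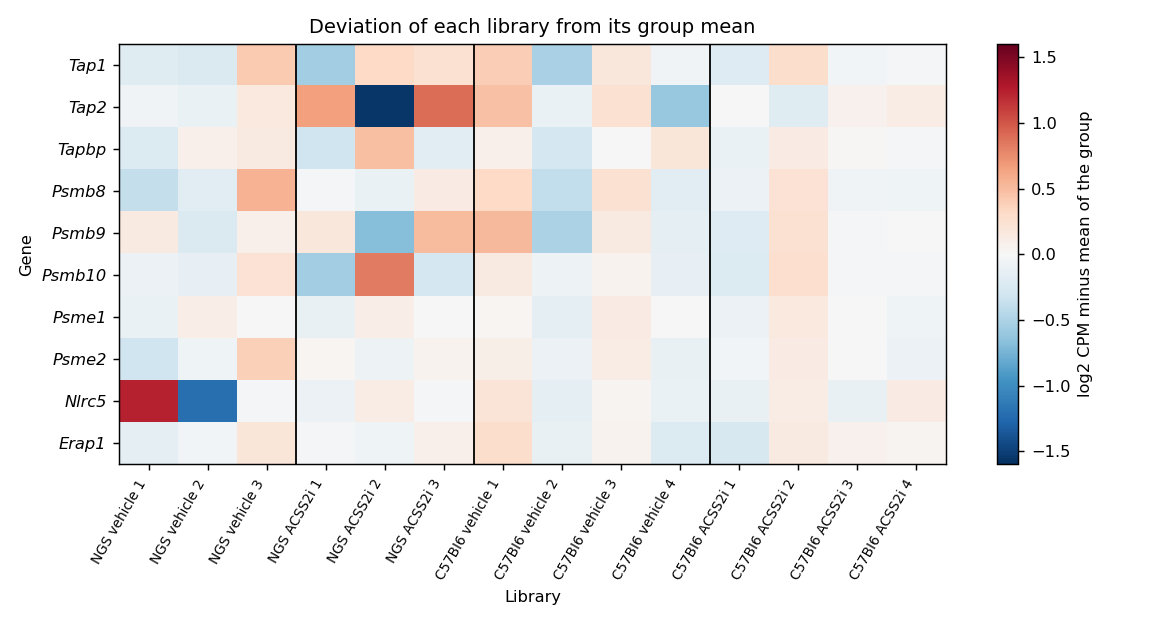
Difference of each library's log2 CPM from the mean of its group for the 10 genes, with red above and blue below the mean; black lines divide the groups. The darkest cell is Tap2 in NGS ACSS2i replicate 2 (blue), a library that is red for Psmb10. NGS vehicle replicates 1 (red) and 2 (blue) differ for Nlrc5, which had 24 and 4 counts there.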

How the data were processed

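RNA of 14 bulk mouse tumours was measured, with groups of host and treatment as labelled. The deposited table holds whole-number counts per gene. The submitters' processing notes list the build mm10 and the tools RSEM 1.2.3 and DESeq2 without their roles, so the authors' counts may be rounded estimates. The annotation release, strand setting and aligner are not given in the sources used here. Symbols came from GENCODE M21 (51596 of 51789 IDs, 193 unmatched).

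Counts were filtered with filterByExpr (17294 genes), TMM-scaled and tested with edgeR 4.0.16 (R 4.3.3) quasi-likelihood tests in 1 model of 4 groups (common biological coefficient of variation 0.236), two-sided, Benjamini-Hochberg over all genes, threshold 0.05. Subunit ratios used exact permutation tests over all arrangements of the libraries (Python 3.11.15, numpy 2.4.6). Alternatives were DESeq2 1.42.0, limma 3.58.1 voom, other scalings and filters, thinning, a replicate block and leaving out libraries. The scripts were tested on simulated data.

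Intervals for 0 counts cover counting error only; replicates differed by 6.62 to 25.4 times the counting chi-square per degree of freedom. Named genes are the 10 members, their constitutive counterparts, class I chains, Irf1, overlapping genes or copies, the genes most like Tap1 and Psmb10, and up to 4 genes of each list by smallest p; 1 gene named by this rule is not reported here. The members and the lists were chosen with earlier results of these data known. Promoter windows are from RefSeq, GRCm38.p6; those of Tap2 and Nlrc5 were not used here. Replicate numbers of the treatments in a host did not deviate together (r -0.137 to 0.155 in C57BI6, -0.002 to 0.095 in NGS), so no block was used.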

Additional observations from a re-analysis of the deposited data

Results flagged for a closer look

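Psmb8 in C57BI6 ACSS2i replicate 2 stood at 149 CPM, far from the other libraries of its group, which lay between 119 and 122 CPM. It was the 1 such value among the 30 sets of 4 values checked (CPM and subunit ratios), and chance alone gives about 1 in 20 groups. The same library had the highest pan-leukocyte (651 CPM) and T cell (60.1 CPM) marker sums of its group; their part in this value was not tested.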

How the results depend on the processing

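In C57BI6, 0 of the 10 genes passed for ACSS2i against vehicle (all genes 0.26% higher). With library totals only 2 passed (all genes 0.572%), with no filter on low counts 2 (0.352%) and by DESeq2 4 (1.61%). By limma voom 5 passed (all genes 1.95%), and 6 with the libraries compared fitted alone (1.5%). Without 1 library 0 to 2 passed (all genes 0.0812% to 0.591%). In NGS 2 passed (all genes 1.32%), with 4 for library totals only (1.91%) and 6 by DESeq2 (4.61%). By limma voom 0 passed in NGS (all genes 0.0925%), and 0 with the NGS libraries alone (0.0558%). Without 1 library 1 to 5 passed there (all genes 0.385% to 4.29%). C57BI6 against NGS under ACSS2i went from 8 (all genes 23.1% higher) to 5 with the treated libraries alone (21.1%). The cause was not tested. Counted over all genes in either direction, the C57BI6 treatment count of 54 became 339 by DESeq2, 429 by limma voom and 266 with C57BI6 alone. It became 25 after thinning and 15 to 122 without 1 library. The NGS count of 466 became 1574 by DESeq2, 27 by limma voom, 9 with NGS alone and 118 to 1743 without 1 library.

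With replicate number as a block, 0 of the 10 genes passed in C57BI6 (all genes 0.052% higher) and 2 in NGS (0.717%). Over all genes 9 and 254 passed in either direction. The average effect passed for 4 in place of 6 (all genes 1.22% higher). The numbers share no stated source, so the block was no main result.

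Signs turned only where values were near 0 or 1 NGS library weighed. In NGS, Psme2 (-0.13) was 0.03 summed with Psme2b and -0.28 to 0.11 without 1 library, and Tap2 (0.20) was -0.19 to 0.64. The Psme2 over Psme3 ratio (-0.09) was -0.3 to 0.16. The difference between hosts' effects without 1 library was -0.04 to 0.49 for Psmb9, -0.49 to 0.29 for Psmb10, -0.07 to 0.14 for Erap1, -1.09 to 0.15 for Nlrc5 and -0.1 to 0.72 for Tap2; by limma voom it was -0.04 for Psmb9, 0.02 for Psmb10 and -0.07 for Erap1. Depth limits Nlrc5 most, at 4 to 24 counts in NGS vehicle.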

Other observations

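Gene patterns across the 14 libraries, taken as deviations of log2 CPM from the group means, were compared with those of Tap1 and Psmb10 over 11059 genes with a mean of 5 CPM or more, as a description. The genes most like Tap1 were Atad2 (Pearson r 0.93), the complement factor Cfb (0.92), the topoisomerase Top2a (0.92), Cit (0.91) and Atp9a (0.91). The genes most like Psmb10 were Kpna4 (0.96), Myh10 (0.95), Gm10076 (0.95), Wdr26 (0.94) and Spr (0.93). The points share libraries and their scaling, and NGS ACSS2i replicate 2 has the largest deviation of Psmb10.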
